A study of Gallus gallus with 6 samples.

Results

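In the dorsal neural folds of 2 chicken embryos that both expressed W-linked genes, 28 autosomal genes were at least 3-fold higher on the control side of embryo 3 than on that of embryo 2. The genes were chosen from the deposited counts by their scaled level (CPM, a gene's reads scaled to the library's total) in the control libraries of embryo 2 and embryo 3. A gene had to lie outside the Z, W and mitochondrial chromosomes and chromosomes 16 and 25. It needed a mean of at least 5 CPM over those 2 libraries, and a ratio of embryo 3 to embryo 2 of at least 3 after 0.5 CPM was added to each. Of 24356 genes in the table, 9533 met the chromosome and level conditions and 28 of these, or 0.294%, met the fold. A further 3 gene IDs were left out by name, with ratios of 2.67 to 3.27 on the control side and of 2.25 to 3.05 on the TGFB1 morpholino side, and 1 of them passed the fold. The control libraries of embryos 2 and 3 therefore describe the members and test nothing about them.

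The libraries were made from poly(A) RNA of single dorsal neural folds of Leghorn White embryos at Hamburger-Hamilton stage 9. Each of 3 embryos was electroporated with a TGFB1 morpholino and with the GTBlue control morpholino on opposite sides, at 1 mM. All embryos thus carried an injected morpholino on both sides, and the labels name the control sides WT and the opposite sides TGFB1 knockdown. Morpholinos are antisense oligonucleotides that block translation or splicing, so the level of the target's RNA need not report the knockdown. The control libraries are called C1, C2 and C3 and the TGFB1 morpholino libraries T1, T2 and T3, where the number is that of the embryo.

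The dorsal neural folds are the raised edges of the neural plate, and cranial neural crest cells arise in them and leave as the tube closes. TGFB1 is a secreted ligand whose receptors phosphorylate SMAD2 and SMAD3. Embryos of one nominal stage can differ in their exact developmental age, in genotype and in how much neighbouring tissue a dissection takes along. Pairing the sides of an embryo takes differences that its sides share out of the morpholino comparison, but not those between the dissections of its sides. The genes described here were chosen for their difference between single control libraries of different embryos.

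The 6 libraries held 5350165 to 12256492 counted reads, with the fewest in C3. W-linked genes took 2346 to 2756 CPM in the libraries of embryos 2 and 3, and 24.0 and 18.3 CPM in C1 and T1. Embryos 2 and 3 thus shared the presence of W-linked transcripts, by which female birds differ from males, while embryo 1 did not. The table gives Ensembl gene IDs without symbols, and 0 of them matched the RefSeq gene table at hand. The members are therefore given by position on galGal6, and the neural fold label could not be checked against named marker genes. Since each library is bulk RNA of a whole fold, fewer cells of a type and less RNA per cell cannot be told apart in any value below.

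On the control side the members ran from 0.236 to 78.4 CPM in embryo 2 and from 8.598 to 337 CPM in embryo 3. The median log2 ratio of C3 to C2 was 2.06 (4.16-fold). Over all 9533 genes that met the level and chromosome conditions it was 0.02. These genes passed the floor of 5 CPM but were not matched to the members in level. Their median over C2 and C3 was 41.6 CPM, against 13.1 CPM for the members. The widest gap belonged to a gene of 12 exons on chromosome 19 (plus strand, 175286 to 231363). Its level was 0.236 CPM in C2, from 2 reads, and 15.3 CPM in C3, from 82 reads. Without the added 0.5 CPM the ratio of these levels was 65.0, with an exact 95% counting interval of 17.4 to 546. With it the ratio was 21.5. Exons of other genes overlap those of this gene, so its reads are uncertain.

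Next in order of the ratio came ENSGALG00000016628.7, a gene of 10 exons on chromosome 1 (plus strand, 128198874 to 128363671). It stood at 0.707 CPM in C2 and 11.03 CPM in C3. The gene at rank 3 has 15 exons on chromosome 2 (minus strand, 47461980 to 47608491) and stood at 2.36 CPM in C2 and 21.5 CPM in C3. At the edge of the rule, the last members inside had C3 over C2 ratios of 3.11, 3.13 and 3.13. The nearest genes outside it had 2.91, 2.87 and 2.82.

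Members with high counts were among them. A gene of 13 exons on chromosome 5 (plus strand, 22587180 to 22599063) had the highest mean of C2 and C3. It was at 54.9 CPM in C2, 337 CPM in C3 and 151 CPM in C1, and at 28.6, 66.2 and 56.7 CPM in T2, T3 and T1. Embryo 3 was highest and embryo 2 lowest on each side, with embryo 1 between them. The next highest, of 11 exons on chromosome 11 (minus strand, 6241053 to 6411630), was at 78.4 CPM in C2, 250 CPM in C3 and 114 CPM in C1. On the TGFB1 morpholino side it was at 40.3 CPM in T2, 89.2 CPM in T3 and 56.7 CPM in T1. The order of the embryos was again the same on each side.

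**Figure D1:**
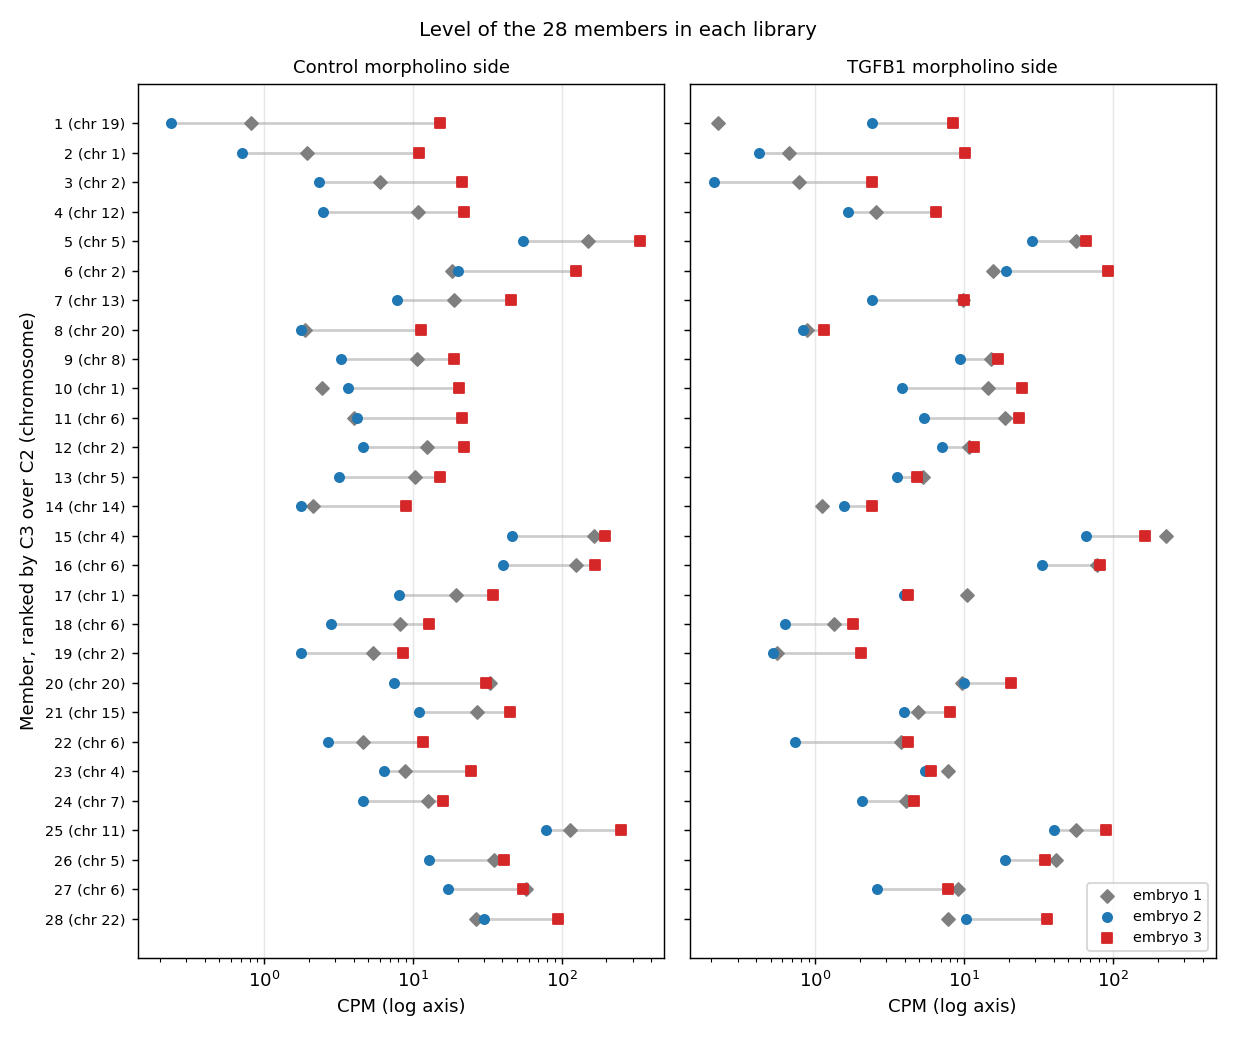
Level of each of the 28 members in CPM (log axis) in the control (left) and TGFB1 morpholino (right) libraries. Rows are ordered by the ratio of C3 to C2 and named by rank and chromosome, and grey lines join embryos 2 and 3. Embryo 3 lies to the right of embryo 2 in all 28 rows of either panel, which the choice of members fixed on the left only.

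The TGFB1 morpholino libraries of the same embryos took no part in the choice. There all 28 members were higher in T3 than in T2, where 49.4% of the 9533 genes were. The ratio was at least 2-fold for 18 members, against 0.713% of the 9533 genes. It was at least 3-fold for 10 members, against 0.178%. The median log2 ratio of T3 to T2 was 1.248 over the members and -0.01 over the 9533 genes. Each embryo gives 1 library a side, so the ratio has no replicate and no test, and what the sides of an embryo share in handling cannot be told apart from the embryo. Counting error alone left the exact 95% interval of T3 over T2 above 1 for 23 of the 28.

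The difference was smaller on the TGFB1 morpholino side for 24 of the 28 members, with a median of -0.83 on the log2 scale between the sides' ratios. A choice by the size of C3 over C2 favours large values there, so a smaller ratio in other libraries follows in part from the rule. Across the 28 members Spearman's correlation between the ratio on the control side and that on the TGFB1 morpholino side was 0.34, with the same 2 embryos behind every point.

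**Figure D2:**
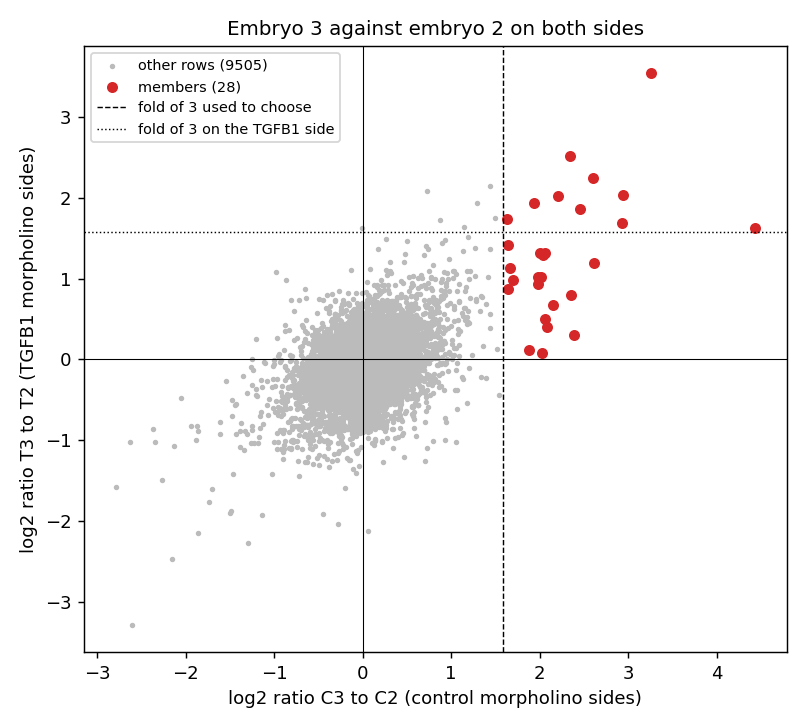
Ratio of embryo 3 to embryo 2 on the log2 scale, on the control sides (horizontal) and the TGFB1 morpholino sides (vertical), for the 28 members (red) and the other genes that met the level and chromosome conditions (grey). Members lie right of the dashed line because they were chosen there, and all 28 lie above 0 on the vertical axis, with 10 above the dotted line.

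Among members with a mean of at least 5 CPM over T2 and T3, ENSGALG00000016628.7 on chromosome 1 had the highest ratio of T3 to T2. It was at 0.414 CPM in T2, from 4 reads, 10.2 CPM in T3 and 0.662 CPM in T1, with C1 at 1.96 CPM. Embryo 3 stood apart from the other embryos on each side, and its sides differed little, with C3 at 11.03 CPM. The unpadded ratio of T3 to T2 was 24.5, with a counting interval of 9.22 to 92.3.

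A similar pattern on a higher level was that of a gene of 19 exons on chromosome 2 (minus strand, 113330950 to 113386231). It was at 126 CPM in C3 and 92.1 CPM in T3, against 18.4 and 20.3 CPM in C1 and C2 and 15.6 and 18.9 CPM in T1 and T2. The lower of the embryo 3 values was above the highest of the other libraries by a wide margin, and embryos 1 and 2 lay close together.

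The lowest ratio at that level was that of ENSGALG00000036142.2, of 13 exons on chromosome 4 (plus strand, 90807622 to 90816116). It was at 6.36 CPM in C2 and 24.7 CPM in C3, but at 5.49 CPM in T2 and 5.97 CPM in T3. C1 and T1 were at 8.89 and 7.73 CPM. Only C3 stood apart among these 6 libraries. In all, 5 members had a T3 over T2 ratio within the lower 95% of the 9533 genes, from 1.06 to 1.42. Their ratios on the control side were 3.67 to 5.25 and not the lowest among the members.

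The relation was not confined to genes past the fold of 3. Of the 73 genes with C3 over C2 ratios between 2 and 3, 60 were higher in T3 than in T2, with a median log2 ratio of 0.57. Between 1.5 and 2 it was 246 of 351 genes, with a median of 0.20. In the opposite direction, genes at least 3-fold higher in C2 than in C3 numbered 18, and all 18 were higher in T2 than in T3. Their median log2 ratio of T2 to T3 was 1.02, and 5 of them reached 3-fold. The embryos thus kept their order on the TGFB1 morpholino side for the outlying genes of either direction, with ratios that graded with the ratio on the control side.

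**Figure D3:**
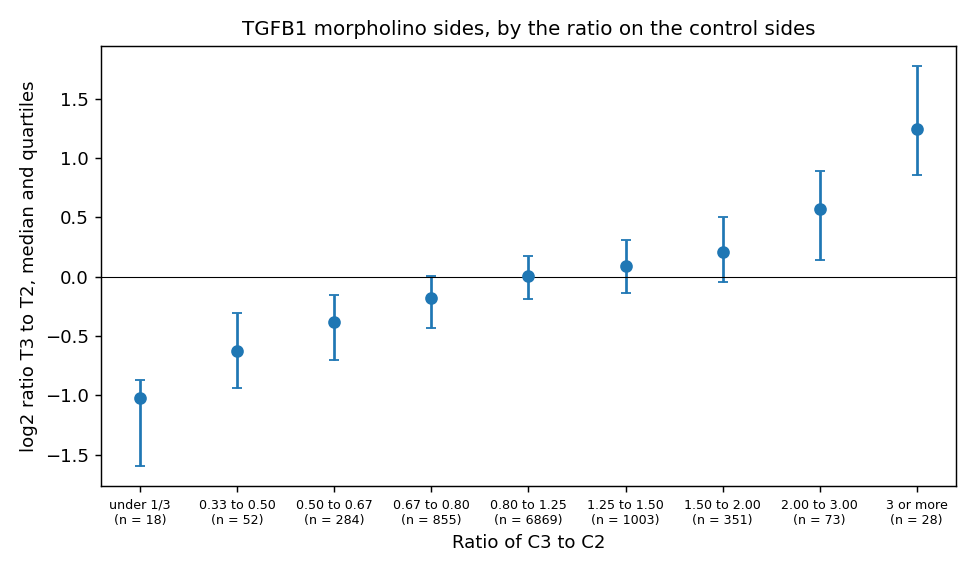
Median (points) and quartiles (bars) of the log2 ratio of T3 to T2 for genes binned by the ratio of C3 to C2, with the number of genes in each bin. The medians go from -1.02 in the 18 genes of the lowest bin to 1.248 in the 28 members, and the lowest bin holds under 20 genes.

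Embryo 1, which took no part in the rule, lay between the other embryos for most members. C1 was between C2 and C3 for 22 of the 28, below both for 4 and above both for 2, where 32.0% of the 9533 genes had C1 between. A gap of at least 3-fold leaves more room between C2 and C3 than most genes have. C1 was nearer to C3 on the log2 scale for 15 members and nearer to C2 for 13. The median log2 ratio of C1 to C2 was 1.23 and that of C3 to C1 was 1.06. C1 was at least 2-fold above C2 for 18 members, against 0.787% of the 9533 genes. C3 was at least 2-fold above C1 for 15, against 0.766%. C2 and C3 chose the members, so nothing is read from these shares.

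C3 was above C2 for all 28 by the rule, and above C1 for 26, where 55.4% of the 9533 genes had C3 above C1. Since C3 was chosen to be high, nothing is read from that difference. The exceptions were the chromosome 6 gene ENSGALG00000005689.6, at 55.3 CPM in C3 and 57.8 CPM in C1, and a chromosome 20 gene from 5127284 to 5143926, at 30.8 CPM in C3 and 33.0 CPM in C1. For these, C2 stood apart on the control side, at 17.3 and 7.43 CPM, and the rule fixed its distance from C3. In T1, T2 and T3 the chromosome 6 gene was at 9.05, 2.59 and 7.75 CPM, again lowest in embryo 2. The chromosome 20 gene was at 9.71, 9.94 and 20.7 CPM there, so T3 and not T2 stood apart.

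On the TGFB1 morpholino side T1 was between T2 and T3 for 17 members, below both for 5 and above both for 6, where 23.4% of the 9533 genes had T1 between. With T3 over T2 at a median of 2.38-fold in the members, more room lay between these libraries than for most genes. T1 was higher than T2 for 23 members, against 49.4%, and lower than T3 for 22, for which the share of genes with T3 above T1 was 47.6%. The median log2 ratios were 0.61 for T1 to T2 and 0.28 for T3 to T1. Embryo 1 thus lay nearer to embryo 3 than to embryo 2 by these medians on the TGFB1 morpholino side. T1 was, however, the library of its side that stood furthest apart over all genes. Member by member the split was closer, with T1 nearer to T3 on the log2 scale for 16 of the 28. With 2 CPM added the rule kept 22 members, and the medians over these were 0.39 and 0.26.

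The TGFB1 morpholino side was then set against the control side within each embryo. With the embryo as a block, edgeR's quasi-likelihood test found that 15 of the 28 members were lower on the TGFB1 morpholino side at a false discovery rate of 0.05, and 0 were higher. Over all 12736 genes tested, 8.81% were called lower and 7.15% higher. Among the 9533 genes that met the level and chromosome conditions, 10.3% were lower and 6.14% higher. At an unadjusted p under 0.05, 19 members were lower and 2 higher, against 15.9% and 15.0% of all genes tested. DESeq2 called 14 members lower and limma-voom 16, and each called 0 higher. Shares over all genes under these 2 methods are not given here. The median log2 fold change was -1.08 over the members, 0.0032 over all tested genes and -0.02 over the 9533. Of the 15, 14 were at least 2-fold lower, and their log2 fold changes ran from -3.10 to -0.67.

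C2 and C3 are also controls here, so the choice of members itself pushes the change down in pair 3 and up in pair 2. The median log2 ratio of the TGFB1 to the control side was -1.52 in pair 3 and -0.43 in pair 2. In pair 1, whose libraries the rule did not use, it was -0.89, against -0.02 over the 9533 genes. T1 was below C1 for 23 members, against 52.0% of those genes, and at least 2-fold below it for 12, against 4.73%. T1 was at least 2-fold above C1 for 2 members, against 3.18%. Over all genes T1 differed more from T2 and T3 than these differed from each other. The chi-square values were 54.8, 59.1 and 13.6 per degree of freedom, so pair 1 rests on the library of its side that stood furthest apart. With pair 3 left out, edgeR tested 26 of the 28 members. It called 13 lower and 1 higher, against 7.59% and 6.18% of all genes tested then. Without pair 1 it called 18 lower and 0 higher, against 10.4% and 7.42%, and without pair 2 it called 17 and 2, against 5.25% and 3.53%. Without pair 1 the only controls left are C2 and C3, which chose the members, so nothing is read from that count. Without pair 2 the push down in pair 3 has no push up beside it.

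The side calls above were made with the embryo as a block. With no replicate block, 3 members were called lower and 0 higher, against 3.35% and 2.12% of all genes. The rule set C3 at least 3-fold above C2, and without the block that gap counts as spread among the controls. Nothing is read from that count, nor from the adjusted p of single members with no block given below. The 3 TGFB1 morpholino libraries all lay below the 3 controls for 5 members, where 17.5% of the 9533 genes did so, a share near the background. C2 was chosen to be low, so nothing is read from that share either. In all 3 pairs 19 members were lower, against 30.1%, and 2 were higher, against 23.2%.

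The smallest p among the members was that of ENSGALG00000005689.6, of 10 exons on chromosome 6 (minus strand, 17930807 to 18009556). It was at 57.8, 17.3 and 55.3 CPM in C1, C2 and C3, and at 9.05, 2.59 and 7.75 CPM in T1, T2 and T3. All TGFB1 morpholino values lay below all control values, and embryo 2 was the lowest on each side. On TMM-scaled CPM it went from 43.4 ± 22.6 to 6.51 ± 3.44 (SD, n = 3). The change amounted to -2.73 on the log2 scale (SE 0.17, edgeR adjusted p = 1.27e-06), and the log2 ratios within pairs 1, 2 and 3 were -2.61, -2.53 and -2.76. The change between the sides was thus alike in the 3 embryos although their levels were not.

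The next smallest p belonged to ENSGALG00000000317.6, of 3 exons on chromosome 22 (minus strand, 1098617 to 1103124). It was at 26.8, 30.1 and 94.4 CPM in C1, C2 and C3, and at 7.84, 10.4 and 35.8 CPM in T1, T2 and T3. T3 lay above C1 and C2, so the groups overlapped while every embryo was lower on the TGFB1 morpholino side. Its log2 fold change was -1.54 (SE 0.16, edgeR adjusted p = 6.46e-05), and with no replicate block the adjusted p was 0.189. An exon of a gene on the opposite strand overlaps it, so its level is uncertain where counting ignored strand.

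The gene of highest level, on chromosome 5 from 22587180, went from 180.3 ± 142 to 51.0 ± 20.3 TMM-scaled CPM (SD, n = 3). This change amounted to -1.57 on the log2 scale (SE 0.21, edgeR adjusted p = 3.44e-04), and 0.0749 with no replicate block. The ratio within pairs was -1.41, -0.93 and -2.34 on the log2 scale, the largest decrease being in embryo 3, where the control was chosen for its height. The chromosome 11 gene from 6241053 had a log2 fold change of -1.14 (SE 0.14, edgeR adjusted p = 2.20e-04), and an adjusted p = 0.107 with no replicate block. Its pairs were close to each other, at -1.01, -0.95 and -1.48.

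Further called members had lower levels. The chromosome 2 gene from 47461980 was at 6.04, 2.36 and 21.5 CPM in C1, C2 and C3 and at 0.773, 0.207 and 2.41 CPM in T1, T2 and T3, with 2 reads in T2. It had the largest fold decrease among the members, a log2 fold change of -3.10. A gene on chromosome 15 from 3797791 to 3988984, with the widest span of the members at 191 kb, was at 26.8, 11.1 and 45.0 CPM on the control sides. On the TGFB1 morpholino sides it was at 4.86, 3.93 and 8.01 CPM, below all controls. A gene on chromosome 12 from 18986975 to 18991321 was at 10.9, 2.48 and 22.2 CPM in C1, C2 and C3 and at 2.54, 1.66 and 6.48 CPM in T1, T2 and T3. Here T1 and T3 lay above C2, so the groups overlapped.

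In part of the called members the decrease was largest in embryo 3. Its control was chosen for its height, so nothing is read from that difference among embryos. The gene with 1 exon on chromosome 20, from 4690689 to 4693338, was at 1.88, 1.77 and 11.4 CPM on the control sides of embryos 1, 2 and 3. On the TGFB1 morpholino sides it was at 0.883, 0.828 and 1.14 CPM, from 8, 8 and 9 reads. The counting interval of T3 over T2 was 0.473 to 4.11, too wide to tell how far the embryos differed there. A chromosome 1 gene from 51055215 to 51064410 was at 19.5, 8.13 and 34.8 CPM in C1, C2 and C3, and at 10.4, 3.93 and 4.19 CPM in T1, T2 and T3. For these and 3 members not called between the sides, T3 over T2 was within the lower 95% of the 9533 genes.

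Of the 13 members not called, 4 were lower and 2 were higher in all 3 pairs, and 7 went in different directions. Their log2 fold changes ran from -1.07 to 0.96, and the smallest adjusted p was 0.0763. ENSGALG00000016628.7 had a log2 fold change of -0.58 (SE 0.39, edgeR adjusted p = 0.341) and ENSGALG00000036142.2 of -0.81 (SE 0.32, edgeR adjusted p = 0.104). The chromosome 2 gene from 113330950, which was high on both sides of embryo 3, had -0.26 (SE 0.14, edgeR adjusted p = 0.234). The chromosome 19 gene was at 0.816 CPM in C1 and 0.221 CPM in T1, and at 2.38 CPM in T2 and 8.39 CPM in T3, so it was higher than its control in embryo 2 and lower in embryos 1 and 3.

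The members higher in all 3 pairs shared a pattern over the embryos. A chromosome 1 gene with 2 exons, from 106522741 to 106524533, was at 2.45, 3.65 and 20.6 CPM in C1, C2 and C3 and at 14.5, 3.83 and 24.4 CPM in T1, T2 and T3. A chromosome 6 gene with 2 exons, from 15415982 to 15419961, was at 3.998, 4.24 and 21.3 CPM in C1, C2 and C3 and at 18.7, 5.38 and 23.4 CPM in T1, T2 and T3. In each, embryo 3 was high and embryo 2 low on either side, while embryo 1 was low on the control side and high on the TGFB1 morpholino side. Their log2 fold changes were 0.96 and 0.91 (edgeR adjusted p = 0.1004 and 0.0777), carried by pair 1 with 2.34 and 2.09.

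A gene on chromosome 4 from 78805627 to 78808134, with 2 exons, had the third highest mean of C2 and C3. It was at 166, 46.8 and 196 CPM in C1, C2 and C3 and at 227, 65.3 and 163 CPM in T1, T2 and T3. Embryo 2 was low on each side and the sides were close, with a log2 fold change of 0.23 (SE 0.15, edgeR adjusted p = 0.321). A chromosome 5 gene from 58714564 to 58717395 had the same order, at 35.0, 12.8 and 41.3 CPM on the control and 41.6, 18.8 and 35.1 CPM on the TGFB1 morpholino sides.

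**Figure D4:**
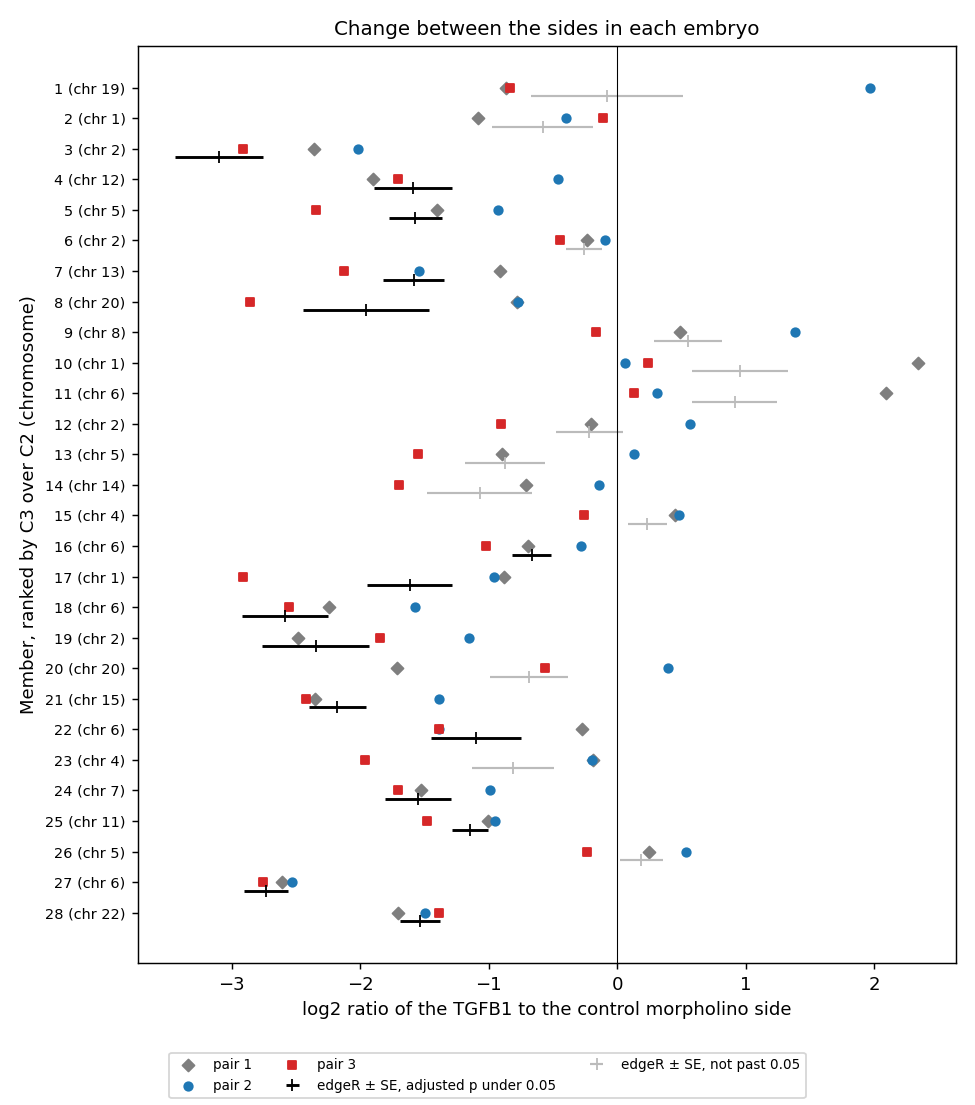
Log2 ratio of the TGFB1 to the control morpholino side for each of the 28 members, in pairs 1 (grey), 2 (blue) and 3 (red), with edgeR's log2 fold change and its standard error below (black past the false discovery rate of 0.05, light grey otherwise). The 15 called members lie left of 0 in all 3 pairs, and pair 2 tends to lie right of pair 3.

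The 18 genes chosen by the same rule turned round, at least 3-fold higher in C2 than in C3, gave 0 lower and 2 higher on the TGFB1 morpholino side in the same edgeR fit, against 10.3% and 6.14% of the 9533 genes. With so few genes the higher count is close to that share. At an unadjusted p under 0.05, edgeR gave 2 lower and 2 higher, against 15.9% and 15.0% of all genes tested. With so few genes, nothing is read from these 2 counts. DESeq2 and limma-voom each called 0 lower, with 1 and 2 higher. Shares over all genes under these methods are not given here, so nothing is read from their counts. The median log2 fold change of the 18 genes was 0.08, with -0.56 in pair 1, 0.18 in pair 2 and 1.12 in pair 3. T1 was below C1 for 12 of the 18, against 52.0% of the 9533 genes. The push of the choice goes the opposite way in these genes, up in pair 3 and down in pair 2, and the difference between the 2 sets was not tested.

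The members lay on 15 of the 30 numbered chromosomes that held any of the 9533 genes, and none lay on an unplaced scaffold. Chromosome 6 held 5 of them among 326 genes (1.53%), between 12170562 and 23675847. Chromosome 2 held 4 among 840 genes (0.476%) and chromosomes 1 and 5 held 3 each. On 4 occasions the next member on a chromosome lay within 2000 kb, on chromosomes 2, 5, 6 and 20. Another of the 9533 genes always lay between them. The 3 genes between the chromosome 6 members from 17930807 and 18287218 had a median log2 ratio of C3 to C2 of -0.13. The 9, 11 and 12 genes between the neighbours on chromosomes 20, 2 and 5 had medians of 0.07, -0.02 and -0.05. The genes between these neighbours thus did not share the difference between the embryos by their medians.

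The members were of lower level than the 9533 genes, with a median of 13.1 CPM against 41.6 CPM over C2 and C3. Per kb of exon the medians were 6.88 and 17.0 CPM. By that measure the highest was a chromosome 6 gene of 639 exonic bases from 12170562 to 12174718, at 162 CPM per kb, and the lowest a chromosome 14 gene from 9652802 to 9801024, at 1.21. The chromosome 6 gene was at 126, 40.3 and 167 CPM in C1, C2 and C3 and at 77.7, 33.1 and 82.2 CPM in T1, T2 and T3. It fell by 0.67 on the log2 scale (SE 0.15, edgeR adjusted p = 0.00988), with the groups overlapping through C2. Exons of another gene on the same strand overlap those of this gene, so its reads are uncertain.

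In structure the members had a median of 6 exons, against 10 among the 9533 genes, and a median span of 8.85 kb against 14.8 kb. Spans ran from 1.79 to 191 kb, and exon lengths had similar medians, with 2468 and 2567 bases. A single exon was found in 1 member, and 16 lay on the plus strand. Other genes overlapped 6 members in span and 3 in exons, which leaves 22 that no other annotated gene overlaps. Among the 9533 genes 25.9% overlapped another.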

How the data were processed

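The deposited table holds raw read counts per gene for 6 libraries, made by the authors with cutadapt, HISAT2 and featureCounts on galGal6, per the submitters' processing notes. Tool versions, gene annotation and strand setting: not given in the sources used here. Groups came from the genotype label and pair numbers from the titles. Same-numbered samples are pairs, since the labels' protocols take both sides of the same embryo. Same-numbered libraries deviated together from their group means (correlations of 0.49, 0.52 and 0.36). Any 2 libraries of a group differed beyond counting noise. Chi-square values per degree of freedom were 54.8 and 59.1 for T1 against T2 and T3, and 11.6 to 15.5 for any other 2 libraries of a group.

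CPM used column totals, and 0.5 CPM was added before ratios. The side test used edgeR 4.0.16 in R 4.3.3 on 12736 genes passing filterByExpr, with TMM factors of 0.973 to 1.01, the pair as a block and Benjamini-Hochberg adjustment over all of them. Standard errors are the log2 fold change over the root of F. With the block, p-values weigh the difference between the sides against the spread of that difference among 3 embryos. This spread was moderated with information from all genes (mean prior degrees of freedom 11.0). The code was tested on simulated data. Counting intervals are exact binomial and cover counting error only. Alternatives included DESeq2 1.42.0 and limma 3.58.1.

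The members and lists were chosen with earlier results of these data known. Described in full were the 2 members of highest mean level, those of highest and lowest T3 over T2 ratio at 5 CPM or more, and the 2 with the smallest p between the sides. The others were picked after their values were seen. Gene IDs are printed for at most 2 that fell. Lists of pathway and marker genes were not used, as no ID had a symbol.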

Additional observations from a re-analysis of the deposited data

How the results depend on the processing

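When each pair was left out in turn, 13 to 18 members were lower and 0 to 2 higher on the TGFB1 morpholino side. The 18 came without pair 1, where only the controls that chose the members are left. The 2 higher came without pair 2 and the 1 higher without pair 3, while 15 lower and 0 higher were called with all pairs. With no replicate block the members lower were 3, all of them among the 15. In that fit the gap the rule set between C2 and C3 counts as spread, so nothing is read from it. With no filter on low counts 19 were lower and 2 higher, and at a false discovery rate of 0.1 there were 17 and 1. Shares over all genes under these 2 settings are not given here. Choosing members at a fold of at least 2 gave 47 lower and 4 higher of 101 (46.5% and 3.96%). At a fold of at least 4 it gave 9 lower and 0 higher of 19 (47.4% lower). The share lower was 53.6% of the 28 members. Over all genes tested in that fit, 8.81% were lower and 7.15% higher. What moved these shares was not tested. The same rule on T3 over T2, an alternative added after seeing the data, chose 15 genes, 7 of them members. Of the 14 tested, 5 were lower and 0 higher, with a median log2 fold change of -0.42. That choice pushes the change up in pair 3 and down in pair 2. Members at least 3-fold higher in T3 than in T2 numbered 5 of 22 with 2 CPM added, 6 of 20 with at least 20 counts in both T2 and T3 and 6 of 22 that overlap no other gene, against 10 of 28. Each of these sets is part of the 28, and adding 2 CPM brings a ratio nearer to 1. These counts could therefore not exceed 10, and nothing is read from their being lower. Under the remaining alternatives counts stayed within 1.5 times. The median ratios between embryos moved by less than 0.66 on the log2 scale, the median counting half-width of a single member's T3 over T2 ratio. That limit is wider than the main medians of T1 to T2 (0.61) and T3 to T1 (0.28), so it cannot show these to be stable. Over the alternatives these 2 medians ran from 0.39 to 0.84 and from 0.15 to 0.33. ENSGALG00000005689.6 passed in all 8 alternatives. ENSGALG00000036142.2 passed with no filter and without pair 1 or 2, in fits that all keep C3, which the rule chose for its height. Its lowest edgeR adjusted p was 2.28e-04, without pair 1. The highest was 0.664, without pair 3, where its log2 fold change was -0.23. Nothing is read from the fits it passed. Members of low count, down to 2 reads in T1 and T2, limit what their ratios can show.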
